A study of Ovis aries with 16 samples.

Results

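CXCL8, called IL8 on the array, and CXCL10 are secreted chemokines that were measured in the hippocampus of 16 fetal sheep. Every probe whose gene name or description in the array annotation named CXCL8, interleukin 8, CXCL10 or IP-10 was taken. This gave 3 of the 15008 probes that were not controls, 2 for CXCL8 (A_70_P039661 and A_70_P039662) and 1 for CXCL10 (A_70_P039366), or 2 of the 775 genes with a name. Both genes were chosen by the size of their difference between hypoxia control and normoxia control in these same arrays, so that difference is given here as a description and was not tested.

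The fetuses were in late gestation and carried chronic vascular catheters. The groups were normoxia control (NC, n = 3), normoxia plus ketamine (NK, n = 4), hypoxia control (HC, n = 5) and hypoxia plus ketamine (HK, n = 4). Hypoxia was produced for 30 min by lowering the oxygen of the gas that the ewe breathed, and NK and HK fetuses received ketamine, an NMDA receptor blocker, at 3 mg/kg intravenously before the stimulus. Hippocampus was collected 24 h after the onset of the stimulus in all groups, so all values describe a single time after recovery in normoxia. No fetus carried a transgene. Each pregnancy was assigned to normoxia or to hypoxia and nearly all fetuses were twins, but the labels do not tie arrays to ewes, so p-values measure the spread between arrays, some of which may share a ewe.

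CXCL8 is an ELR-containing CXC chemokine that attracts neutrophils through the receptors CXCR1 and CXCR2. It is made by endothelial cells, macrophages and many other cells when NF-kB is activated by IL1, TNF or Toll-like receptors. CXCL10 has no ELR motif, is induced by interferons, and attracts activated T cells and NK cells through CXCR3. In brain, both are known as products of activated glia and vessels. In the RefSeq gene table of the sheep assembly ARS-UI_Ramb_v3.0, CXCL10 lies between CXCL9 and CXCL11 and is separated from CXCL8 on the same chromosome by 25 protein-coding genes.

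The CXCL8 probes are not independent of each other. Each probe has 60 bases, and the array annotation places A_70_P039662 at bases 1163 to 1222 and A_70_P039661 at bases 1203 to 1262 of the CXCL8 transcript, so that they share 20 bases. The CXCL10 probe covers bases 1047 to 1106 of its transcript. The array annotation gives no genome position for any of the 3. The last 30 bases of A_70_P039662, the first 30 of A_70_P039661 and the first 30 of the CXCL10 probe are shown 5′ to 3′. The bases that the CXCL8 probes share are in capitals, and how far their agreement rests on these was not tested.
CXCL8 A_70_P039662: ctggcctagtCTTGCCCTTATTATGCAATG
CXCL8 A_70_P039661: CTTGCCCTTATTATGCAATGatgtgttgaa
CXCL10 A_70_P039366: gcaggctatgtaagacaaatatgctaaatg

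Levels are given as scaled intensity, which is the background-subtracted signal of the probe after the 75th percentile of each array was set to 1000. Differences are on the log2 scale. A probe counted as well above background on an array where the scanner software marked its spots so. Levels of different probes are not compared with each other.

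With the probe A_70_P039662 CXCL8 was well above background on most normoxic arrays, at a low level, and on every hypoxic array. In NC its scaled intensity was 24.1, 20.2 and 7.15, and it was well above background on 2 of 3 arrays. In NK it was 25.4, 25.4, 5.52 and 21.7, with 3 of 4 arrays well above background. In HC it was 977, 109, 51.6, 2143 and 31.0 on replicates 1 to 5, all well above background. In HK it was 44.2, 141, 29.1 and 27.8, again all well above background. In scaled intensity every HC and HK array therefore lay above every NC and NK array. With the authors' deposited log2 values HK replicate 4 (8.178) lay below NC replicate 1 (8.184) and NK replicate 1 (8.182). HC replicates 1 and 4 stood far above the other hypoxic arrays, and the rest of HC overlapped with HK. In whole tissue, more cells that make CXCL8 and more CXCL8 RNA per cell cannot be told apart.

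The second CXCL8 probe, A_70_P039661, did not rise well above background in NC or NK. It read 4.08, 2.71 and 2.91 in NC and 2.32, 2.68, 2.36 and 5.48 in NK. In HC it read 614, 53.5, 21.8, 1340 and 13.6, and was well above background on 5 of 5 arrays. In HK it read 17.4, 69.0, 11.6 and 17.5, and replicate 3, the lowest, was not well above background. The order of the HC arrays was the same with both probes.

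CXCL10 was well above background on all 16 arrays and covered a far wider range in hypoxia than in normoxia. It was printed in 5 spots per array, and the SD of these spots was 0.0337 to 0.160 on the log2 scale, with a median of 0.0740. In NC its scaled intensity was 160, 458 and 80.6, and in NK it was 217, 203, 44.2 and 65.2. In HC it was 1281, 18335, 603, 40370 and 4001 on replicates 1 to 5, with 1 of the 5 spots on replicate 4 left out as an outlier. In HK it was 71.3, 11390, 480 and 9874. All HC arrays lay above all normoxic arrays. HK was split, with replicates 2 and 4 within the range of HC, replicate 3 just above the highest normoxic array and replicate 1 inside the normoxic range. No CXCL8 or CXCL10 spot was saturated.

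**Figure D1:**
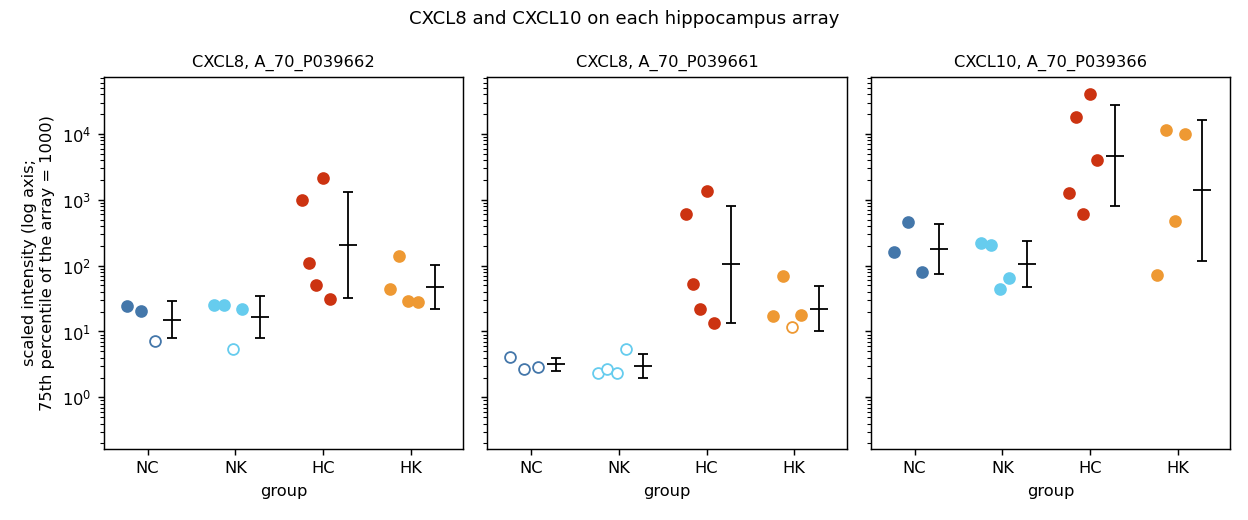
Scaled intensity (log axis) of the CXCL8 and CXCL10 probes on each of the 16 arrays, by group. Filled points were well above background and open points were not, and the bar beside each group is the mean ± SD of the log2 values. The CXCL10 points of HK run from 71.3 to 11390, whereas the CXCL8 points of HK with A_70_P039662 run from 27.8 to 141.

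The comparison HK-NK asks how hypoxia differed from normoxia when both had ketamine, and it shares no array with HC-NC. Its SE and p-values in limma come from a single fit of all groups, so the spread within HC and NC also enters them. With only HK and NK in the fit, the SE was 0.55 for A_70_P039661 and 1.59 for CXCL10. For CXCL8, A_70_P039661 was at least 2.56-fold higher in HK than in NK with the main processing, by a bound that is not strict. HK replicate 3 enters it at 11.6 without being well above background, though the lowest signal so called on its array was 9.15. The bound sets each NK array at the lowest signal called well above background on that array. The fitted difference of 2.89 (SE 1.19), which uses NK values below that mark, met the criterion of an unadjusted p under 0.05 in limma, and the Benjamini-Hochberg adjusted p over the 12541 probes tested was 0.900. The overlapping probe A_70_P039662 differed by 1.51 (SE 1.15), did not meet the criterion and had an adjusted p of 0.949, and it was 0.36 with normexp background correction and 0.17 with the authors' deposited values. With either probe 4 of 4 HK arrays lay above all NK arrays, which gave p = 0.0286 in an exact two-sided permutation test of 4 against 4 arrays, the smallest p such a test allows. For A_70_P039661 this order sets 3 measured HK arrays and a replicate 3 at background against NK signals that were all at background. For A_70_P039662 the order was lost with the deposited log2 values, where HK replicate 4 (8.178) lay below NK replicate 1 (8.182). By comparison, 1.87% of all probes tested had HK above NK without overlap, and 2.81% were higher and 2.46% lower at the criterion. No probe of the 12541 passed after adjustment, and the smallest adjusted p was 0.836. Without HK replicate 2, NK replicate 1, NK replicate 2 or NK replicate 3, the difference of A_70_P039661 was 2.34, 2.77, 2.84 and 2.78 and no longer met the criterion. With normexp or the deposited values, which raise low signals, it was 0.29 and 0.10 and did not meet it either.

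CXCL10 differed by 3.72 (SE 1.58) between HK and NK. This met the criterion in limma, with an adjusted p of 0.932, while the exact two-sided permutation test gave p = 0.114. HK was above all NK arrays on 3 of 4 arrays, and replicate 1 was within the NK range. The value rested on single arrays. Without HK replicate 2, HK replicate 4, NK replicate 3 or NK replicate 4 the difference was 2.71, 2.78, 3.30 and 3.49 and the criterion was no longer met. It was also not met with the authors' deposited values, at 2.57, or with array weights, at 3.16. HK-NK was positive on both slides of 8 arrays, with CXCL10 at 2.10 and 5.34, A_70_P039661 at 3.80 and 1.98 and A_70_P039662 at 1.63 and 1.38.

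In HC-NC, the contrast for which the genes were picked, the difference was 3.76 (SE 1.19) for A_70_P039662 and 4.70 (SE 1.63) for CXCL10. By the same kind of bound A_70_P039661 was at least 10.9-fold higher in HC with the main processing. HC and NC did not overlap for any of the 3 probes. Of all probes tested, 2.89% had HC above NC without overlap, and at the criterion 4.55% were higher and 6.27% lower. The CXCL8 differences depended on how low signals were treated. With normexp they were 1.58 for A_70_P039662 and 1.30 for A_70_P039661, and with the authors' deposited values they were 1.14 and 0.82.

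HK-HC and NK-NC share arrays with HC-NC, so they are given side by side with no test. HK minus HC was -2.12 (SE 1.09) for A_70_P039662, -2.25 (SE 1.13) for A_70_P039661 and -1.75 (SE 1.50) for CXCL10. The arrays of HK and HC overlapped for every probe. With the replicate number as a block, A_70_P039661 was at -2.99 (SE 0.98) and CXCL10 at -1.80 (SE 1.20). Leaving out HC replicate 5, which has no HK array of its number, gave the same differences. The shift therefore came from that array and not from pairing. Without HK replicate 1 the CXCL10 value was -0.31, without HC replicate 4 it was -0.97, and without HK replicate 2 it was -2.75. Without HC replicate 4 the value of A_70_P039662 was -1.27 and that of A_70_P039661 -1.33. With normexp they were -1.24 and -1.03, and with the deposited values -0.98 and -0.73. NK minus NC was 0.14 (SE 1.24) for A_70_P039662 and -0.77 (SE 1.71) for CXCL10, and with the replicate number as a block, which pairs NK with NC here, A_70_P039662 was at -0.12 and CXCL10 at -1.34. The sign of A_70_P039662 also turned with array weights (-0.21), without NC replicate 3 (-0.41), without NK replicate 1 or 2 (-0.07 each), and with normexp (-0.02) and the deposited values (-0.0032). A_70_P039661 was below the mark on all arrays of both groups and has no NK-NC value.

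**Figure D2:**
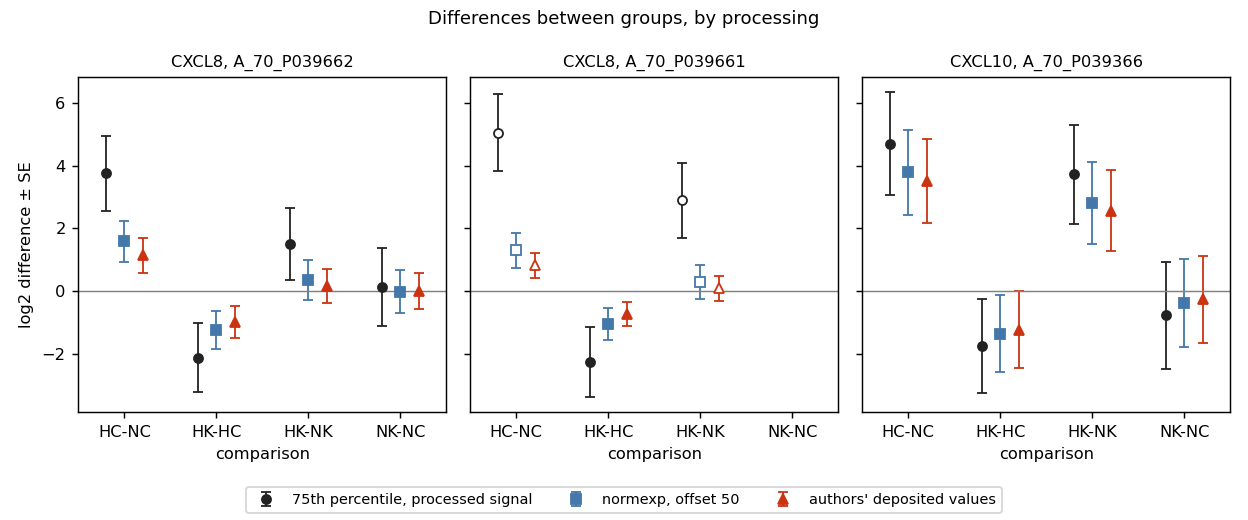
Log2 differences ± SE of the probes in the comparisons, from 1 fit with all groups, with the main processing (circles), normexp with an offset of 50 (squares) and the authors' deposited values (triangles). Open symbols compare with a group that had no array well above background, and NK-NC is left out for A_70_P039661 for that reason. For the CXCL8 probes the size depends strongly on the processing, whereas CXCL10 in HC-NC stays above 3 in each.

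The spread between fetuses was among the largest on the array in HC, and for CXCL10 also in HK. In HC the SD on the log2 scale was 2.95 for A_70_P039661, 2.68 for A_70_P039662 and 2.54 for CXCL10, which ranked 14, 22 and 31 of 12541 probes, against a median SD of 0.257 over all probes. In HK, CXCL10 had an SD of 3.56 and ranked 6, whereas the CXCL8 probes had SDs of 1.13 and 1.09 and ranked 375 and 406. The normoxic groups also varied more than most probes in CXCL10, with SDs of 1.26 in NC and 1.16 in NK. A_70_P039662 had SDs of 0.947 in NC and 1.07 in NK, close to its 1.09 in HK. A_70_P039661 had SDs of 0.315 in NC and 0.590 in NK, where no array was well above background.

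The arrays that were high in CXCL8 were not always those high in CXCL10. HC replicate 4 ranked first in both. HC replicate 1 ranked 2 of 16 in CXCL8 but 6 in CXCL10, and HK replicate 4 ranked 9 in CXCL8 but 4 in CXCL10. HK replicate 1 ranked 6 in CXCL8 and 14 in CXCL10. Over the 16 arrays Pearson's r between A_70_P039662 and CXCL10 was 0.688 and Spearman's rho was 0.776. After the group means were subtracted r was 0.383, and it was 0.404 within HC and 0.353 within HK. The arrays share their group means and, in part, their slide, so these are descriptions. The CXCL8 probes, which share bases, had r = 0.955 over the same arrays and 0.850 without HC replicates 1 and 4.

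**Figure D3:**
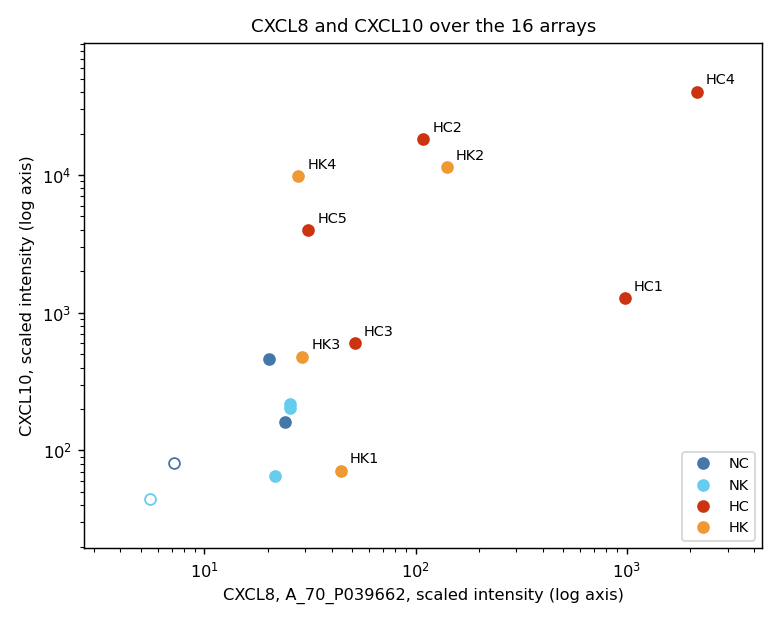
Scaled intensity of CXCL10 against that of CXCL8 (A_70_P039662) on the 16 arrays, both on log axes, with the HC and HK arrays labelled by replicate and open points where CXCL8 was not well above background. HC4 is highest in both, while HC1 is high in CXCL8 (977) and HK4 in CXCL10 (9874).

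The genes whose levels went most closely with each chemokine were different. Among 658 other named genes, each taken by its brightest tested probe, the 5 with the highest r with CXCL8 over 16 arrays were ICAM1 (0.857), SELP (0.852), IL1B (0.842), RCAN1 (0.830) and RASSF1 (0.789). ICAM1 and SELP, which encodes P-selectin, are adhesion molecules through which vessels capture leukocytes. IL1B is the cytokine interleukin 1 beta. RCAN1 is an inhibitor of calcineurin, and RASSF1 is a tumor suppressor that binds Ras proteins. Among the 5 highest with CXCL10 were IRF1 (0.958), RTP4 (0.892), PSMB8 (0.888) and PSME2 (0.872). IRF1 is a transcription factor of the interferon response, RTP4 is an interferon-induced chaperone of receptors, and PSMB8 and PSME2 belong to the immunoproteasome and its activator. No gene was in both sets of 5. Within groups, r of the deviations from group means was 0.914 for IRF1 with CXCL10 and 0.712 for ICAM1 with CXCL8. With the authors' deposited values 3 of the 5 genes were the same for each chemokine.

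IRF1 showed the same split of HK as CXCL10. It ran from 68.9 to 96.0 in NC, from 64.4 to 78.7 in NK and from 242 to 1699 in HC. In HK it was 70.4, 990, 93.5 and 461 on replicates 1 to 4, so replicates 1 and 3 lay within the range of NC and replicates 2 and 4 within that of HC. SELP, in contrast, was 269, 302, 43.4 and 150 in HK, against 15.3 to 43.7 in NC and 11.3 to 60.1 in NK. ICAM1 was 41.8 to 581 in HC and 34.1 to 149 in HK, with 18.4 to 25.3 in NC and 21.0 to 67.7 in NK.

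**Figure D4:**
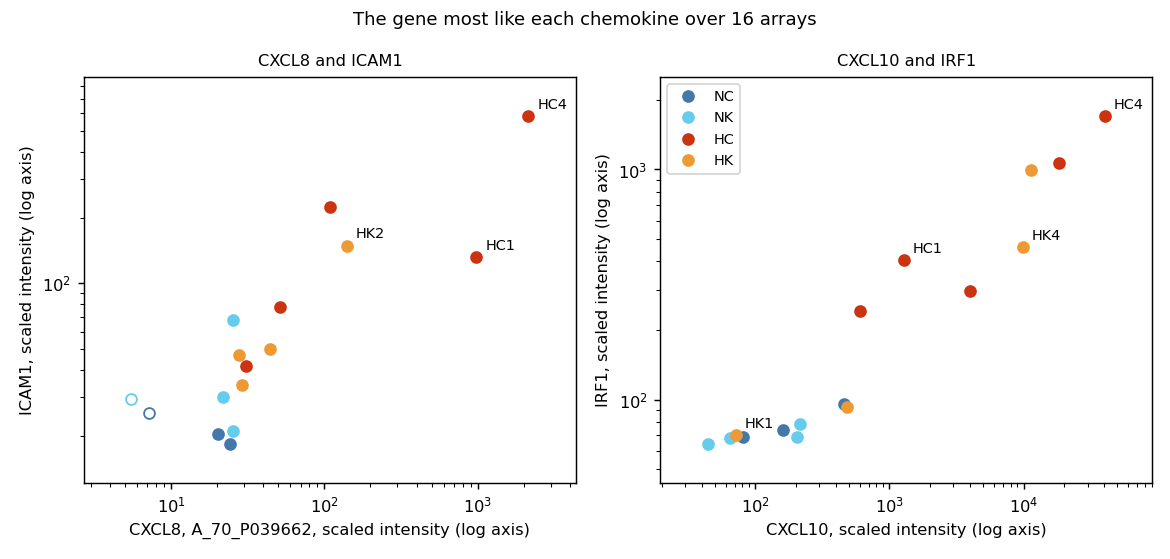
Scaled intensity (log axes) of ICAM1 against CXCL8 (A_70_P039662) on the left and of IRF1 against CXCL10 on the right, over 16 arrays coloured by group, with open points where CXCL8 was not well above background. Pearson's r of the log2 values is 0.857 on the left and 0.958 on the right, and HK1 lies among the normoxic arrays on the right.

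Of a list of 30 inducers and regulators of CXCL8 in the NF-kB pathway, 15 were tested. In HC-NC the 15 had a median difference of 1.07 against -0.03 over all probes. Against 60 higher and 33 lower of 660 named genes, 10 of the 15 were higher at the criterion and 0 lower. The cytokines among them were TNF (2.24, SE 0.70), IL1B (1.17, SE 0.34) and IL1RN, the antagonist of the IL1 receptor. IL1RN was at least 3.94-fold higher by the kind of bound used for CXCL8, because 0 of 3 NC arrays were well above background (adjusted p = 0.181 in limma). The receptors were TLR2 (1.20, SE 0.30) and TLR4 (1.07, SE 0.31), which sense bacterial products, and CD14 (1.97, SE 0.45), their co-receptor. MYD88, IKBKB, NFKBIA and CEBPB, which act further down the pathway, were also higher. No gene of this or the following lists passed after adjustment over all probes in any comparison, and the smallest adjusted p in HC-NC was 0.149 in limma. IL6, another NF-kB target, had a difference of -0.44 (SE 0.52) and did not meet the criterion. In HK-NK 1 gene was higher and 0 lower with a median of 0.45, where 41 of 660 named genes were higher and 11 lower. That gene was IL1RN (1.32, SE 0.58, adjusted p = 0.938 in limma), which was well above background on 1 of 4 NK and 2 of 4 HK arrays. It did not meet the criterion with normexp, quantile normalization or the deposited values.

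In HK-HC, where 2.86% of all probes were higher and 1.87% lower at the criterion, 7 of the 15 genes were lower and 0 higher, with a median of -0.45. They were TNF, IL1B, IL1RN, TLR2, TLR4, CD14 and CEBPB. This comparison shares the HC arrays with HC-NC, so the counts are not separate evidence. In NK-NC, with 0.71% of probes higher and 1.07% lower, 0 of the 15 met the criterion in limma (smallest adjusted p over all probes 1.00).

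Of 32 genes of the interferon pathway up- and downstream of CXCL10, 11 were tested. In HC-NC, against 60 higher and 33 lower of 660 named genes, 3 were higher at the criterion and 0 lower. These were IRF1 (2.81, SE 0.78), MX2 (2.09, SE 0.94), an antiviral GTPase, and PSMB8 (1.78, SE 0.54). The median of the 11 was 0.56. In HK-NK, against the 41 higher and 11 lower of 660 named genes, 2 were higher and 0 lower, IRF1 (1.75, SE 0.76) and PSMB8 (1.20, SE 0.52), both with an adjusted p of 0.938 in limma. Neither met the criterion with normexp or the deposited values. The ligand IFNG differed by 0.39 (SE 0.32) and 0.05 (SE 0.31), and the receptor genes IFNAR1 and IFNAR2 by -0.08 and 0.24 in HC-NC, and none of these met it. In HK-HC, against 20 higher and 18 lower of 660 named genes, 1 of the 11, MX2, was lower (-1.89, SE 0.87).

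Few other chemokines and receptors could be read. CXCL9 and CXCL11, which share the receptor of CXCL10, and the receptors CXCR2 and CXCR3 had no named probe. Of 34 other chemokines 3 were tested, CXCL1, CCL25 and XCL1, and 0 met the criterion in any comparison. CXCL1, which like CXCL8 acts on CXCR2, was saturated on 12 of 16 arrays, so differences in it could be hidden. Its probes are annotated as the sheep GRO protein, and whether they read CXCL1 alone was not tested. Of 22 chemokine receptors 4 were tested and 0 met the criterion. A probe that the array annotation relates to bovine CXCR1 read 45.8 to 106 in NC, 44.7 to 115 in NK, 34.2 to 108 in HC and 7.76 to 105 in HK. Its difference was -0.06 (SE 0.66) in HC-NC and -0.66 (SE 0.64) in HK-NK.

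Of 14 genes of leukocyte adhesion 8 were tested. In HC-NC, against 60 higher and 33 lower of 660 named genes, 3 of the 8 were higher at the criterion. These were SELP (4.15, SE 0.98), ICAM1 (2.74, SE 0.69) and ITGB1 (0.30, SE 0.12), an integrin subunit of many cell types. In HK-NK, against 41 higher and 11 lower of 660 named genes, 1 measured gene was higher, SELP (2.52, SE 0.95, adjusted p = 0.900 in limma). ITGAL, the alpha chain of the integrin LFA-1 that binds ICAM1, also met the criterion there, but it did not stand well above background on an HK or NK array and entered the test through 3 HC arrays, so that this call compares background signals and is not read. Neither gene met the criterion with normexp or the deposited values. ICAM1 differed by 0.81 (SE 0.67) in HK-NK and did not meet the criterion. No gene of this list was lower in HC-NC or HK-NK.

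Some markers of neutrophils, the cells that CXCL8 attracts, were higher on some hypoxic arrays. Of 14 markers 4 were on the array and 3 were tested. In HK-NK, against 41 higher and 11 lower of 660 named genes, 2 of the 3 were higher at the criterion. These were the granule genes CATHL3 (4.42, SE 1.26, adjusted p = 0.873 in limma) and LTF (1.98, SE 0.68, adjusted p = 0.900). In HC-NC 0 of 3 were higher (CATHL3 2.46, SE 1.30). The third marker, CXCR1, went the other way, at -0.66 (SE 0.64) in HK-NK and -0.06 (SE 0.66) in HC-NC. On HK replicate 4, the highest in CATHL3, CXCR1 read 7.76 and was not well above background. CATHL3, a cathelicidin, read 229, 1464, 5447, 309 and 936 on HC replicates 1 to 5 and 270, 5779, 250.2 and 6918 on HK replicates 1 to 4. It read 70.5 to 252 in NC and 15.1 to 234 in NK, so HC replicate 1 and HK replicate 3 lay within the range of NC. HC replicates 1 and 4, the highest in CXCL8, were thus the lowest HC arrays in CATHL3, and HK replicates 2 and 4 were the highest in both CATHL3 and CXCL10 within HK. The summed level of the 4 markers was 199 to 387 in NC, 135 to 334 in NK, 389 to 5823 in HC and 354 to 7208 in HK. This sum came mostly from CATHL3 on the highest array, HK replicate 4, at 6918 of 7208. Its log2 value had r = 0.214 with CXCL8 and 0.625 with CXCL10 over 16 arrays, with Spearman's rho of 0.656 and 0.735, and r was -0.327 and 0.338 after group means were subtracted. The part of these cells in the CXCL8 and CXCL10 values was not tested.

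**Figure D5:**
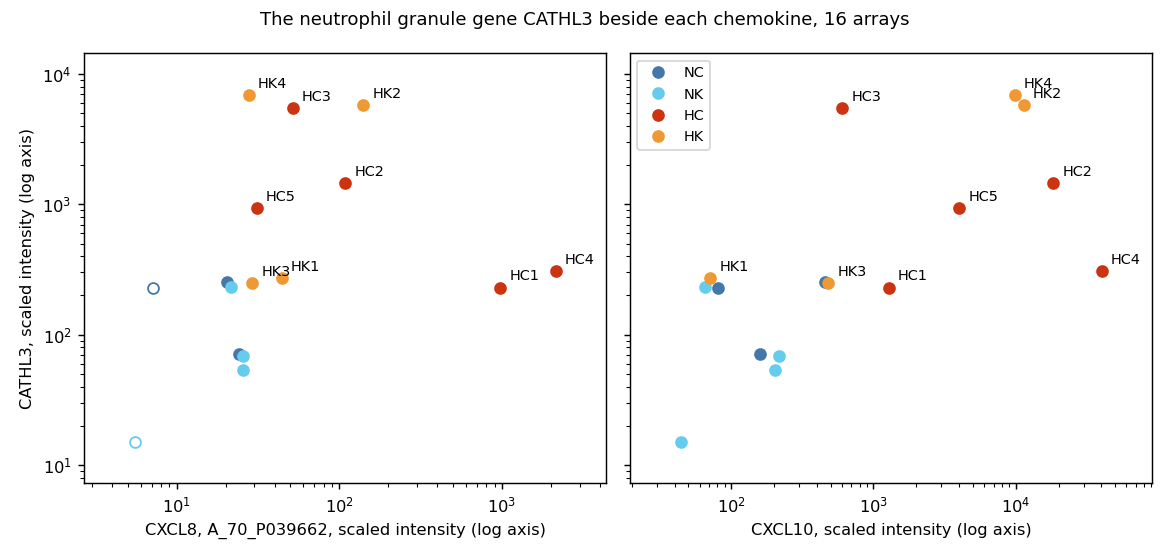
Scaled intensity (log axes) of the neutrophil granule gene CATHL3 against CXCL8 (A_70_P039662) on the left and against CXCL10 on the right, over 16 arrays coloured by group, with HC and HK arrays labelled and open points where CXCL8 was not well above background. HC1 and HC4 are highest in CXCL8 with CATHL3 at 229 and 309, whereas HK4 has CATHL3 at 6918 with CXCL8 at 27.8.

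Markers of other cells were also read. At the criterion 60 of 660 named genes were higher and 33 lower in HC-NC, and 41 were higher and 11 lower in HK-NK. T and NK cells, which CXCL10 attracts, had 6 tested markers, of which CD5 and IL2RA were higher in HC-NC and 0 of 6 met the criterion in HK-NK. IL2RA was well above background on 1 NC array and 4 HC arrays. With normexp or the deposited values 1 of the 6 was higher in HC-NC. The summed level of the T and NK cell markers was 803 to 895 in NC, 697 to 1062 in NK, 848 to 1213 in HC and 548 to 1163 in HK. CD247 gave the most to this sum, with group means of 554 to 664, and differed by 0.02 (SE 0.21) in HC-NC. Microglia and macrophages had 5 tested markers, of which FCER1G and FCGR1A, parts of Fc receptors, were higher in HC-NC, with sums of 427 to 523 in NC, 461 to 525 in NK, 472 to 1378 in HC and 478 to 833 in HK. The log2 sum of this list had r = 0.727 with CXCL10 and 0.377 with CXCL8, and 0.496 and -0.258 after group means were subtracted. Endothelial markers summed to 984 to 1138 in NC, 810 to 1208 in NK, 724 to 1572 in HC and 881 to 1531 in HK, and 0 of 4 met the criterion in HC-NC or HK-NK. This sum, mostly PECAM1 (group means 929 to 1089), had r = -0.0412 with CXCL8 and -0.330 with CXCL10 on the log2 scale. After group means were subtracted r was -0.179 and -0.683. Of 5 tested astrocyte markers GJA1 (0.46, SE 0.21) was higher in HC-NC and 0 met the criterion in HK-NK. Their log2 sum had r = -0.129 with CXCL8 and 0.308 with CXCL10, and -0.631 and 0.0167 after group means were subtracted. Of 5 tested neuron markers, all well above background on all 16 arrays, 3 were lower and 0 higher in HC-NC, the glutamate receptor genes GRIN1 (-1.02, SE 0.40), GRIA1 (-0.65, SE 0.26) and GRIA2 (-0.42, SE 0.17), and 0 met the criterion in HK-NK. Their summed level, to which SST gave the most with group means of 17450 to 35740, was 32746 to 48598 except on HC replicates 2, 3 and 5, where it was 31912, 28437 and 9766. Its log2 value had r = 0.130 with CXCL8 and -0.154 with CXCL10 over the arrays, and 0.603 and 0.0305 after group means were subtracted. Choroid plexus markers ranged from 930 to 85428 over the arrays and had r = -0.0795 with CXCL8 and 0.397 with CXCL10. The part of these cells in the chemokine values was not tested.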

How the data were processed

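Hippocampal RNA from 16 fetuses was hybridized to 16 one-color Agilent ovine arrays on 2 slides. Per the file headers, the authors' scanner output was made with Feature Extraction 10.1.1.1, and its processed intensity had been corrected for background and spatial trend array by array. Low signals hold surrogate values, and arrays had not been scaled to each other. The authors' deposited table holds log2 values that share their quantiles over the arrays, and per the labels' processing notes limma in R 2.15.1 was used. The background step behind that table is not given in the sources used here.

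The processed intensity was put on the log2 scale and centred on the 75th percentile of its array, without control or outlier spots, and spots of a probe were averaged. Probes that were well above background on fewer than 3 of 16 arrays were not tested, which left 12541 of 15008, all 3 chemokine probes among them. On single arrays, 76.7% to 82.6% of spots were well above background, and precision is limited by how many arrays there were. All 4 groups entered a single model in limma 3.58.1 (R 4.3.3), which was tested on simulated data. Benjamini-Hochberg adjustment ran over all probes tested. The criterion of an unadjusted p under 0.05 follows the study's statistics section. Exact permutation tests used scipy 1.17.1.

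Gene symbols were matched for 1243 of 15008 probes, most by accession to the RefSeq table, and each gene was read by its brightest tested probe. Named were the chemokine probes, the 5 genes most correlated with each, the genes of the pathway lists past the criterion in HK-NK, and the receptors CXCR1 to CXCR3 with CXCL9 and CXCL11. Other genes of the lists were named after their values were seen, and not every gene that these rules name is reported here. The members, the lists and the tests were chosen with earlier results of these data known.

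Over all probes, NC and NK arrays with a shared replicate number moved together around the means of their groups (r = 0.37, 0.31 and 0.21), and the numbers come from the labels. In HK-HC r was 0.40, 0.31, 0.074 and 0.12 for replicates 1 to 4. Replicates 1 and 2 were thus about as close there as in NK-NC. HC-NC and HK-NK did not show such values for every number (r from 0.0341 to 0.259 in HK-NK and from 0.0406 to 0.130 in HC-NC). The alternatives were the authors' deposited values, normexp with an offset of 50, scaling by quantiles or the median, other filters on dim probes, a block for the slide or for the replicate number, a fit of the compared groups alone, array weights and leaving out each array. Arrays of the hypothalamus were not analysed here.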

Additional observations from a re-analysis of the deposited data

Results flagged for a closer look

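Among the 9 groups of 4 or 5 arrays examined over the 3 probes, 2 held an array set apart from the others by Dixon's ratio of gap to range, and chance sets apart about 1 in 20 groups. For CXCL8 probe A_70_P039661 in NK the ratio was 0.833, with replicate 4 high at a scaled intensity of 5.48 against 2.32 to 2.68, and no NK array was well above background. For CXCL8 probe A_70_P039662 in NK the ratio was 0.897, with replicate 3 low at 5.52, where it was not well above background, against 21.7 to 25.4 on the other arrays. No HC or HK group was set apart, although their ranges were far wider.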

How the results depend on the processing

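All differences of the 3 probes kept their sign in HC-NC, HK-HC and HK-NK under every alternative that gave a value. HK-NK of CXCL10 lost the criterion with the authors' deposited values (2.57) and with array weights (3.16), and ranged from 2.71 to 5.15 without one array. HK-NK of A_70_P039661 lost it with normexp (0.29) and the deposited values (0.10), and ranged from 2.34 to 3.20. HK-NK of A_70_P039662 met it with only HK and NK in the fit (1.51), was 0.36 with normexp and 0.17 with the deposited values, and ranged from 0.98 to 1.76 without one array. HC-NC of A_70_P039661 was 1.30 with normexp and 0.82 with the deposited values, and that of A_70_P039662 was 1.58 and 1.14, since both raise low signals. With the replicate number as a block, HK-NK was 3.72 for CXCL10, 2.89 for A_70_P039661 and 1.51 for A_70_P039662, with smaller p-values that changed no call. The deviations of HK and NK arrays with the same number correlated at 0.0341, 0.159, 0.121 and 0.259 for replicates 1 to 4. Whether the numbers pair HK with NK was not tested. The probes of CXCL8 were not well above background on all arrays and have no value under that filter. No scaling between arrays, an alternative chosen after seeing the data, left every value on the same side.

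Counts of list genes changed most in HK-NK, where 1 NF-kB gene became 0 with normexp, quantile normalization or the deposited values, and the 2 interferon and the 2 adhesion genes (with ITGAL) became 0 with normexp or the deposited values. In HK-HC the 7 lower NF-kB genes became 4 and the 1 lower interferon gene 0 with the deposited values, and 0 lower adhesion genes became 1 with normexp or the deposited values. In HC-NC 0 lower NF-kB genes became 1 and in NK-NC the 1 lower adhesion gene became 0 with either. CXCL8 signals lie near background in normoxia, which limits the size of its differences.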
